A study of Homo sapiens with 6 samples.

Results

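The 38 genes described here belong to glycolysis and to the transcriptional response to low oxygen, and they were read in the human pancreatic cancer cell line YAPC with and without induced GLI2, a zinc finger transcription factor at the end of the Hedgehog pathway. Members were taken by gene symbol from the table of all genes, and all 38 were among its 25442 genes. Of them, 22 form the glycolysis arm (transporters, enzymes and their regulators) and 16 the hypoxia arm (HIF subunits, oxygen-sensing hydroxylases and genes induced by low oxygen). A mean of at least 1 FPKM (a fragment count scaled to transcript length and to the size of the library) over the 6 libraries was reached by 35 members and by 12493 genes in all, and these were tested.

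The study asked how GLI2 shifts pancreatic cancer cells between the classical and basal-like subtypes, and for this it made RNA-seq libraries of 2 derivatives of YAPC, which the study counts among its classical lines. The YAPC-iGLI2 cells (3 libraries) carried GLI2 in the doxycycline-inducible retroviral vector pRetroX-Tight-Puro, and the YAPC-iEV cells (3 libraries) carried the same vector without an insert. Both groups were kept in doxycycline (Dox) for 6 days, so the comparison is between 2 engineered derivatives, with the drug in both. The sources used here do not say whether each derivative was 1 clone, nor whether replicates 1 to 3 were separate cultures, so p-values measure only the spread between these libraries. The oxygen level in culture is not given in the sources used here.

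Glycolysis splits glucose into pyruvate, and cells that turn pyruvate into lactate export the lactate through the plasma membrane. Pancreatic tumors are dense and poorly perfused, and both glucose use and low oxygen are studied in them for that reason. In oxygenated cells, prolyl hydroxylases of the EGLN family mark the HIF alpha subunits for breakdown through VHL. When oxygen falls, HIF-1 alpha (HIF1A) and HIF-2 alpha (EPAS1) accumulate as proteins and bind short DNA sites with the core ACGTG or GCGTG near genes such as LDHA, NDRG1 and EGLN3. HIF activity is set largely at the protein level, which these libraries do not measure.

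The first of these forms, ACGTG, were looked for on both strands of the 250 bases before each annotated start (RefSeq, GRCh38.p14). These windows are on another build than the expression table, and no coordinate was carried between them. The letters were present in 26 of 64 member windows (40.6%) and in 18.5% of all 35116 windows. By gene, 21 of the 34 members with a window (61.8%) held them in at least 1 window, beside 21.7% of 27305 genes. Members had more windows each (64 for 34 genes) than all genes (35116 for 27305), which by itself raises a share by gene. The list was drawn up around glycolysis and the response to low oxygen, so the excess is not independent evidence. The longer CACGTG, the E-box of MYC and USF factors, was in 8 member windows (12.5%) and in 6.34% of all windows. Each CACGTG holds ACGTG on both strands and so counts as 2 copies of the shorter letters. The letters GACCACCCA, a GLI consensus site, were in 0 of 64 member windows and in 0.199% of all windows. A match is only a match of letters, and a window without one says nothing about binding elsewhere. SLC2A3, NDRG1, BNIP3L and VEGFA had no window in the table used.

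5 windows are shown, each 5′ to 3′ on the strand of its gene with every ACGTG or CACGT in capitals. They were picked with the values known and do not stand for the other members. No member called lower is shown. Of those, HK1, ENO1 and PKM had 0 copies in every window, and GPI and TPI1 had 1 copy in 1 window each. HK2 and SLC16A3 were called higher in iGLI2, LDHA had the most copies of any member window, and P4HA1 and P4HA2 are paralogs that differed between libraries. The HK2 window lies at chr2:74834920-74835169 on the plus strand and has 4 copies. The LDHA window lies at chr11:18394313-18394562 on the plus strand and has 5 copies. The SLC16A3 window lies at chr17:82228792-82229041 on the plus strand and has 2 copies. HK2, LDHA and SLC16A3 have more than 1 window each, and the window with the most copies is shown. The other HK2 window has 2 copies, and the other windows of LDHA and SLC16A3 have 0. The P4HA1 window, at chr10:73096867-73097116 on the minus strand, has 1 copy, and the P4HA2 window, at chr5:132227092-132227341 on the minus strand, has 0.
HK2: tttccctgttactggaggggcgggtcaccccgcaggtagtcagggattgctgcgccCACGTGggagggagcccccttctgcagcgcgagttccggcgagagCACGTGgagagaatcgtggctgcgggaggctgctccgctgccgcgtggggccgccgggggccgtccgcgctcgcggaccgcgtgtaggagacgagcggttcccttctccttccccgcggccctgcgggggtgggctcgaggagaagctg
LDHA: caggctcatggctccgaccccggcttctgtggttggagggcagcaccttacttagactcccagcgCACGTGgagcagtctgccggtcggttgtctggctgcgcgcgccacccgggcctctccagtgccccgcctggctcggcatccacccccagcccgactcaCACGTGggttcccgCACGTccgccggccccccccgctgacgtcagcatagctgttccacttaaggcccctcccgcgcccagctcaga
SLC16A3: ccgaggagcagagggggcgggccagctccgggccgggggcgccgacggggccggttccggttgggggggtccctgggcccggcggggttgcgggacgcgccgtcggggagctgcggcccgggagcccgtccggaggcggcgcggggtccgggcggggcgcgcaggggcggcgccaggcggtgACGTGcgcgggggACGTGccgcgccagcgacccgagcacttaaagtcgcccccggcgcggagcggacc
P4HA1: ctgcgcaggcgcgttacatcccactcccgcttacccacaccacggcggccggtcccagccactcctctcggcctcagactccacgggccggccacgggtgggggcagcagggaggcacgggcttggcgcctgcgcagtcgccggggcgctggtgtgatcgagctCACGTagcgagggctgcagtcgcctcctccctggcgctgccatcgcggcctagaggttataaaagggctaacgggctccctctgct
P4HA2: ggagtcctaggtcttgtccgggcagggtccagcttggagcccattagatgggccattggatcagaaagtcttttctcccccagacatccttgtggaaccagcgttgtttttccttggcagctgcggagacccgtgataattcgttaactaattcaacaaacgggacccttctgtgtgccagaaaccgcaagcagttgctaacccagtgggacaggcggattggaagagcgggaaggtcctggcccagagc

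GLI2 separated the groups as the labels say. It read 0.466, 0.412 and 0.344 FPKM in iEV replicates 1 to 3 and 94.5, 207 and 195 FPKM in iGLI2 replicates 1 to 3, and reads of the construct and of the native gene cannot be told apart. Total FPKM per library lay between 981341 and 1082684 in iEV and between 803145 and 889555 in iGLI2. Small RNA genes held 45.4% to 48.4% of it in iEV and 38.9% to 40.4% in iGLI2. The groups did not overlap in either, and the part of this in the fold changes was not tested beyond the alternative scalings. FPKM gives no read depth, so no counting error can be stated. The ductal markers KRT19, EPCAM, MUC1 and SLPI summed to between 1030 and 1160 FPKM in iEV and between 1060 and 1120 FPKM in iGLI2, while KRT8 and KRT18 were listed at 0 in all 6 libraries, which in such a table can be a failed estimate. Summed markers of other cells were low for the acinar list (5.18 to 13.3 FPKM in iEV, 2.71 to 4.44 in iGLI2, with CPA1, AMY2A and PNLIP at 0), the endocrine list (1.34 to 2.43 over all libraries, with SST and PPY at 0), the fibroblast list (1.51 to 1.63 and 2.40 to 3.09, with DCN at 0) and the endothelial list (0.467 to 0.654 over all libraries). The leukocyte list summed to 99.1 to 118 FPKM in iEV and 133 to 146 in iGLI2 through CD68, CD14 and LAPTM5, and the part of these markers in any result was not tested. Replicate 1 stood apart in both groups. The median absolute log2 difference between replicates 2 and 3 was 0.0628 in iEV and 0.0493 in iGLI2, while replicate 1 differed from them by 0.130 and 0.135 in iEV and by 0.211 and 0.220 in iGLI2 (9037 genes).

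With GLI2, the glucose transporter SLC2A3, the lactate exporter SLC16A3, the hexokinase HK2 and the collagen prolyl hydroxylase P4HA2 were higher, and the enzymes HK1, GPI, TPI1, ENO1 and PKM were lower. Among 35 tested members, 4 were called higher, beside 10.1% of all genes tested, and 5 were called lower, beside 11.8% of all genes (limma on log2(FPKM + 1), Benjamini-Hochberg adjusted p under 0.05 over all 12493 genes). The 9 calls make 25.7% of the tested members, beside 21.9% of all genes, which is near the background. The median log2 fold change was 0.11 over the tested members and -0.015 over all genes tested. In 9 members every iGLI2 library was above every iEV library, beside 19.2% of all genes, and in 7 every iGLI2 library was below, beside 22.8%. The remaining 19 members overlapped between the groups. Calls for 7 of the 9 were kept under every alternative run, and those for GPI and PKM were not. A scaling without small RNA genes gave 7 members higher and 4 lower, beside 1794 genes higher and 1225 lower of 12168. Over all genes it raised the share of calls that were higher from 46.0% to 59.4%. In bulk RNA, fewer cells of a kind and less RNA per cell cannot be told apart.

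The glycolysis arm had 3 members higher and 5 lower of 22 (36.4% called, beside 21.9% of all genes), with a median log2 fold change of -0.08. The hypoxia arm had a single call, 1 higher and 0 lower of 13 tested (7.69%, under the share of all genes), with a median of 0.31. CA9, ANKRD37 and LOX were under a mean of 1 FPKM and were not tested. Replicate 1 of both groups was highest for most of these genes, and without that replicate the counts rose to 7 higher and 10 lower in the glycolysis arm and to 7 higher and 2 lower in the hypoxia arm (2 libraries against 2), while the share of all genes called rose to 43.8%.

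**Figure D1:**
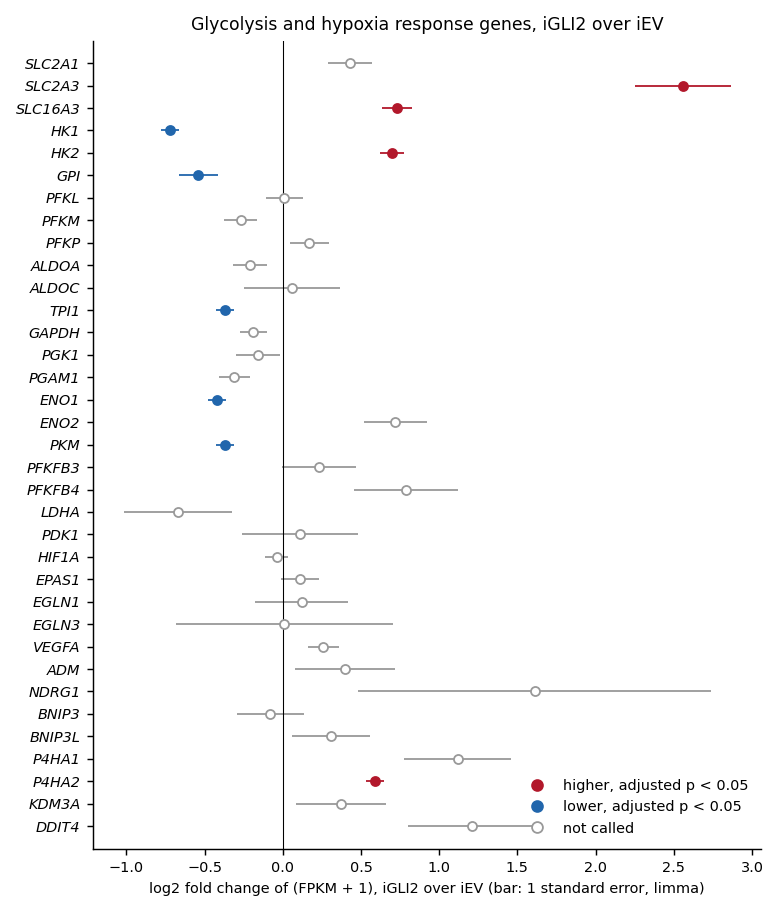
Log2 fold change of (FPKM + 1), iGLI2 over iEV, for the 35 tested members (points) with 1 standard error from limma (bars), colored by call. SLC2A3 lies farthest to the right at 2.56 and HK1 farthest to the left at -0.72, and the widest bar belongs to NDRG1, whose replicate 1 was far above the other libraries in both groups.

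In all 3 member transporters of glucose and lactate, every iGLI2 library was above every iEV library, beside 19.2% of all genes tested. In the list of other glucose and monocarboxylate transporters, 2 of 8 tested were above in this way and 3 were below. SLC2A3 (GLUT3, chr12:8071824-8088892, hg19), a high-affinity glucose transporter typical of neurons, read 1.76, 0.996 and 0.849 FPKM in iEV replicates 1 to 3 and 18.9, 9.50 and 8.95 FPKM in iGLI2. The groups were far apart, and replicate 1 was the highest in each. Mean FPKM was 10.4-fold higher in iGLI2, and the log2 fold change was 2.56 (SE 0.306, adjusted p = 0.00325). Its near-identical neighbour SLC2A14 was listed at 0 in the 3 iEV libraries and at 0.223, 0.402 and 0.345 FPKM in iGLI2, and how reads that match both were assigned is not given in the sources used here.

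SLC16A3 (MCT4, chr17:80186282-80197375, hg19), which exports lactate together with a proton, read 86.0, 73.4 and 70.7 FPKM in iEV and 136, 120 and 126 FPKM in iGLI2. The lowest iGLI2 library was well above the highest iEV library, and the mean was 66.3% higher (log2 fold change 0.73, SE 0.096, adjusted p = 0.00452). SLC2A1 (GLUT1, chr1:43391046-43449029, hg19), the main glucose transporter of these cells by level, read 93.6, 77.5 and 77.0 FPKM in iEV and 133, 101 and 102 FPKM in iGLI2. The groups did not overlap, but replicate 1 exceeded replicates 2 and 3 in both, and the log2 fold change of 0.43 (SE 0.139) did not pass (adjusted p = 0.0799). Without replicate 1 of both groups it was 0.39 (adjusted p = 0.0024). SLC2A1 belongs to the basal-like signature that the study used, so it is not independent evidence of a direction.

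SLC2A3 made up a small part of the summed FPKM of both glucose transporters. Its share was 1.40% ± 0.396 (SD, n = 3) in iEV and 9.71% ± 2.39 (n = 3) in iGLI2. The difference of 8.31 percentage points had p = 0.1 in an exact two-sided permutation test, which is the smallest p that 3 against 3 libraries allow, and 0.2 after adjustment over 8 isozyme shares.

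Of the member hexokinases, which phosphorylate glucose in the first step of glycolysis, HK1 fell and HK2 rose. HK1 (chr10:71029756-71161637, hg19), the form of most tissues, read 39.2, 37.5 and 39.7 FPKM in iEV and 24.1, 22.4 and 22.9 FPKM in iGLI2. All iGLI2 libraries were lower, by 40.4% of the mean (log2 fold change -0.72, SE 0.058, adjusted p = 0.000905). HK2 (chr2:75059782-75120481, hg19), the form of muscle and of many tumors, read 12.2, 10.3 and 11.3 FPKM in iEV and 20, 18.5 and 18.4 FPKM in iGLI2. All iGLI2 libraries were higher, by 68.1% of the mean (log2 fold change 0.70, SE 0.077, adjusted p = 0.00252).

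HK2 made up 23.8%, 21.6% and 22.2% of the summed HK1 and HK2 FPKM in iEV and 45.4%, 45.2% and 44.6% in iGLI2. Replicate 1 was close to the others here, and leaving out any single library kept the difference between 22.1 and 23.2 percentage points (22.6 with all 6, exact p = 0.1, 0.2 after adjustment over 8 shares). The HK2 window printed above holds CACGTG at 2 places, and so does the printed LDHA window. LDHA was not called, and any role of these letters was not tested.

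HKDC1, a hexokinase gene next to HK1 (chr10:70975089-71027315, hg19) that is no member, was expressed at about the level of HK1, and it was named after its values were seen. It read 34.5, 37.7 and 39.9 FPKM in iEV and 15.3, 24.5 and 24.3 FPKM in iGLI2, 42.7% lower by mean (log2 fold change -0.80, SE 0.186, adjusted p = 0.0301). The groups did not overlap, and the call was lost in 5 of 16 alternatives, each leaving out 1 library (adjusted p up to 0.113). Counted with HKDC1, the HK2 share of hexokinase FPKM was 12.9% ± 1.14 (SD, n = 3) in iEV and 30.0% ± 3.19 (n = 3) in iGLI2. That difference was 17.1 percentage points (exact permutation p = 0.1, the smallest possible), and the HK2 share was highest in replicate 1 of both groups.

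**Figure D2:**
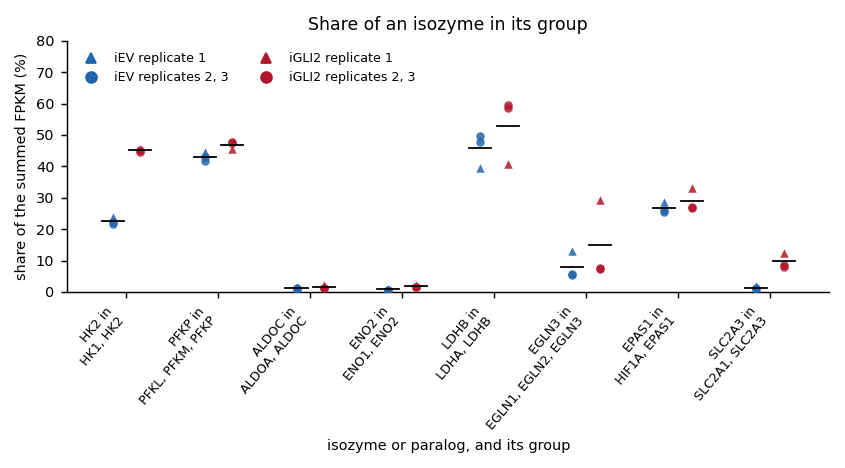
Share of an isozyme or paralog in the summed FPKM of its group (percent) in the 3 iEV and 3 iGLI2 libraries, with replicate 1 as a triangle and the group mean as a bar. The HK2 share sits at 21.6% to 23.8% in iEV and at 44.6% to 45.4% in iGLI2, while the LDHB and EGLN3 shares of replicate 1 lie away from those of replicates 2 and 3.

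Between glucose 6-phosphate and the triose phosphates, GPI and TPI1 were called lower. GPI (chr19:34855645-34893318, hg19), which makes fructose 6-phosphate, read 160, 133 and 124 FPKM in iEV and 107, 88.3 and 89.2 FPKM in iGLI2. The groups did not overlap (log2 fold change -0.54, SE 0.125, adjusted p = 0.0297), but 7 of 16 alternatives took the call away, among them leaving out any 1 library other than iGLI2 replicate 1 (adjusted p between 0.0553 and 0.106). TPI1 (chr12:6976584-6982521, hg19), which interconverts the triose phosphates, read 308, 295 and 302 FPKM in iEV and 241, 230 and 229 FPKM in iGLI2. It was 22.7% lower by mean, with little spread in either group (log2 fold change -0.37, SE 0.057, adjusted p = 0.00775).

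The last steps to pyruvate fell as well. ENO1 (chr1:8921059-8939943, hg19), which makes phosphoenolpyruvate, read 715, 747 and 715 FPKM in iEV and 562, 532 and 538 FPKM in iGLI2, 25.0% lower by mean (log2 fold change -0.42, SE 0.058, adjusted p = 0.00557). PKM (chr15:72491370-72523727, hg19), the pyruvate kinase of most tissues, read 1170, 1230 and 1200 FPKM in iEV and 940, 912 and 935 FPKM in iGLI2. Its groups were also clear of each other (log2 fold change -0.37, SE 0.057, adjusted p = 0.00804). Quantile normalization moved PKM to -0.18 (adjusted p = 0.215), and leaving out iEV replicate 2 or iGLI2 replicate 2 gave adjusted p = 0.0536 and 0.0565.

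ENO2, the neuronal enolase, did not move with ENO1. It read 7.48, 4.96 and 5.39 FPKM in iEV and 13.6, 9.05 and 8.83 FPKM in iGLI2, groups that did not overlap, with a log2 fold change of 0.72 (SE 0.204) just short of the threshold (adjusted p = 0.0543). It passed with a pseudocount of 0.1 (adjusted p = 0.0484) and without replicate 1 of both groups (adjusted p = 0.00377). The ENO2 share of enolase FPKM was 0.815% ± 0.197 (SD, n = 3) in iEV and 1.89% ± 0.421 (n = 3) in iGLI2 (exact p = 0.1, adjusted 0.2).

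The remaining 8 enzymes of the backbone were not called. GAPDH, the most abundant member and a common reference gene, read 2140, 1970 and 1960 FPKM in iEV and 1960, 1710 and 1660 FPKM in iGLI2. All iGLI2 libraries lay below the lowest iEV library, replicate 1 by less than the rounding shows, with a log2 fold change of -0.19 (SE 0.086, adjusted p = 0.176) that turned to 0.04 under quantile normalization. PGAM1, the phosphoglycerate mutase, also had groups that did not overlap, at -0.31 (SE 0.10, adjusted p = 0.0788). Values for ALDOA (-0.21), PGK1 (-0.16), PFKM (-0.27), PFKP (0.17), PFKL (0.01) and ALDOC (0.06) came from groups that overlapped. The platelet-type phosphofructokinase PFKP made up 43.1% ± 1.39 (SD, n = 3) of phosphofructokinase FPKM in iEV and 46.8% ± 1.07 (n = 3) in iGLI2 (exact p = 0.1, adjusted 0.2), and ALDOC made up 1.32% and 1.60% of aldolase FPKM (exact p = 0.5).

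**Figure D3:**
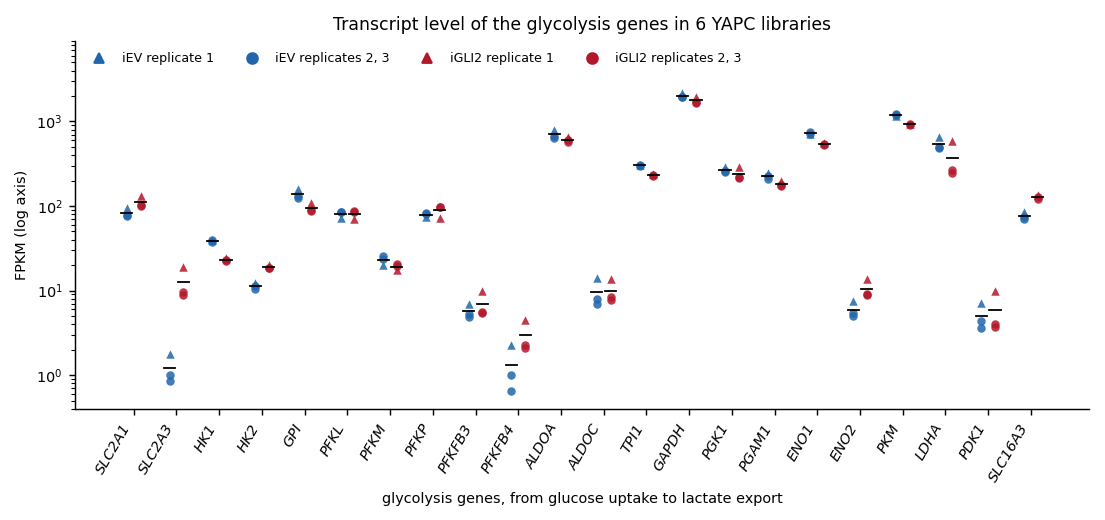
FPKM (log axis) of the 22 glycolysis members in the 3 iEV libraries (blue) and the 3 iGLI2 libraries (red), with replicate 1 as a triangle and the group mean as a bar. SLC2A3 shows the widest separation, from 0.849 to 1.76 FPKM in iEV to between 8.95 and 18.9 FPKM in iGLI2, and LDHA the triangles far above the circles.

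Summed FPKM of the glycolytic enzymes and LDHA was 6726, 6274 and 6125 in iEV replicates 1 to 3 and 5762, 4971 and 4943 in iGLI2. Every iGLI2 library was below every iEV library, and replicate 1 was the highest in each group. As a share of FPKM outside small RNA genes, the sum was 1.26%, 1.12% and 1.12% in iEV and 1.17%, 0.938% and 0.921% in iGLI2, so on that scale iGLI2 replicate 1 lay within the iEV range. Many of these enzymes (GAPDH, PGK1, PGAM1, ENO1, TPI1, LDHA and PKM among them) have processed pseudogenes, and how the authors treated fragments with more than 1 match is not given in the sources used here, so their levels are uncertain by an unknown amount.

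The enzymes that set fructose 2,6-bisphosphate, an activator of phosphofructokinase, were low and were not called. PFKFB4 read 2.27, 0.995 and 0.644 FPKM in iEV and 4.53, 2.26 and 2.09 FPKM in iGLI2. The highest iEV library, its replicate 1, lay above iGLI2 replicates 2 and 3 (log2 fold change 0.79, SE 0.333, adjusted p = 0.148). PFKFB3 had a log2 fold change of 0.23 (SE 0.235, adjusted p = 0.54).

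At pyruvate, the replicate 1 libraries of LDHA lay far from the others. LDHA (chr11:18415936-18429765, hg19), which reduces pyruvate to lactate and has a promoter window printed above, read 655, 493 and 482 FPKM in iEV and 585, 266 and 247 FPKM in iGLI2. Replicate 1 was 1.34-fold over the mean of replicates 2 and 3 in iEV and 2.28-fold over it in iGLI2, and iGLI2 replicate 1 lay within the iEV range. Over all 6 libraries the log2 fold change was -0.67 (SE 0.348, adjusted p = 0.229), and without replicate 1 of both groups it was -0.92 (adjusted p = 0.00175).

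LDHB, the other lactate dehydrogenase subunit, held 39.6%, 47.8% and 49.6% of the summed LDHA and LDHB FPKM in iEV and 40.9%, 58.6% and 59.6% in iGLI2. The replicate 1 shares of both groups were close to each other, and in replicates 2 and 3 the iGLI2 share was higher, with an exact p of 0.3 over all 6 libraries (0.48 after adjustment over 8 shares). PDK1, the kinase that restrains pyruvate dehydrogenase, read 7.03, 4.37 and 3.65 FPKM in iEV and 9.75, 4.02 and 3.71 FPKM in iGLI2, groups that overlapped, with a log2 fold change of 0.11 (SE 0.371, adjusted p = 0.856).

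In the hypoxia arm, neither HIF subunit was called at the transcript level. HIF1A (chr14:62147759-62215807, hg19) read 119, 116 and 112 FPKM in iEV and 104, 118 and 115 FPKM in iGLI2. The groups overlapped, the log2 fold change was -0.04 (SE 0.072, adjusted p = 0.697), and its sign turned under a scaling without small RNA genes (0.03). EPAS1 (chr2:46524541-46613842, hg19) read 48.2, 41.1 and 38 FPKM in iEV and 51.5, 43.4 and 42.1 FPKM in iGLI2 (log2 fold change 0.11, SE 0.119, adjusted p = 0.57). EPAS1 was 26.8% ± 1.77 (SD, n = 3) of the summed subunits in iEV and 29.0% ± 3.65 (n = 3) in iGLI2 (exact p = 0.5). HIF1A was at its lowest in iGLI2 replicate 1.

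Both oxygen-sensing prolyl hydroxylases that are themselves HIF targets were highest in replicate 1. EGLN3 (chr14:34393421-34420284, hg19) read 17.3, 7.10 and 6.64 FPKM in iEV and 28.3, 5.67 and 4.96 FPKM in iGLI2. Replicate 1 was 2.52-fold over the mean of the other libraries in iEV and 5.32-fold in iGLI2, and the log2 fold change of 0.01 (SE 0.692, adjusted p = 0.992) became -0.32 without replicate 1 of both groups (adjusted p = 0.0424). EGLN1 was at 8.70 ± 2.57 FPKM (SD, n = 3) in iEV and 9.74 ± 4.04 FPKM (n = 3) in iGLI2 (log2 fold change 0.12, adjusted p = 0.815). The EGLN3 share of EGLN1, EGLN2 and EGLN3 was 8.07% ± 4.39 (SD, n = 3) in iEV and 14.8% ± 12.5 (n = 3) in iGLI2 (exact p = 0.5), and without iGLI2 replicate 1 the difference was -0.533 percentage points. EGLN2 enters that share through an entry merged with MIA and RAB4B, whose mean was 108 FPKM in iEV and 56.5 FPKM in iGLI2. A lower merged entry raises the EGLN3 share. In replicates 2 and 3 the share was 5.67% and 5.41% in iEV and 7.71% and 7.37% in iGLI2. EGLN3 itself was lower in these iGLI2 libraries.

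Among other genes induced by low oxygen, P4HA2 alone was called. P4HA2 (chr5:131520569-131563556, hg19), a subunit of collagen prolyl 4-hydroxylase, read 16.1, 16.9 and 16 FPKM in iEV and 24, 25.8 and 25.8 FPKM in iGLI2. The iGLI2 libraries were 54.1% higher by mean with no overlap (log2 fold change 0.59, SE 0.058, adjusted p = 0.00168), and replicate 1 was the lowest of iGLI2. Its paralog P4HA1 (chr10:74766980-74856732, hg19) read 15.1, 9.57 and 10.5 FPKM in iEV and 44.5, 19.9 and 20.1 FPKM in iGLI2. The groups did not overlap, and the log2 fold change of 1.12 (SE 0.342) had adjusted p = 0.067. It was 0.93 with adjusted p = 0.0022 without replicate 1 of both groups.

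NDRG1 and DDIT4, a stress-responsive gene and an inhibitor of mTORC1, had large differences within groups as well as between them. NDRG1 (chr8:134249414-134309547, hg19) read 58.2, 5.27 and 5.14 FPKM in iEV and 130, 22.1 and 20.3 FPKM in iGLI2. Replicate 1 was 11.2-fold over the mean of the others in iEV and 6.15-fold in iGLI2, so that iEV replicate 1 lay above iGLI2 replicates 2 and 3. The log2 fold change was 1.61 (SE 1.129, adjusted p = 0.37) over 6 libraries and 1.84 (adjusted p = 0.000732) without replicate 1 of both groups, where iGLI2 was 4.06-fold higher.

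DDIT4 (chr10:74033677-74035797, hg19) read 115, 49.0 and 57.2 FPKM in iEV and 251, 130 and 126 FPKM in iGLI2. The lowest iGLI2 library was above the highest iEV library, with a log2 fold change of 1.21 (SE 0.408, adjusted p = 0.0873), and 1.25 without replicate 1 of both groups (adjusted p = 0.00263). VEGFA, the angiogenic factor, also had groups that did not overlap, at 180, 216 and 218 FPKM in iEV and 230, 261 and 241 FPKM in iGLI2. Unlike most of the arm it was lowest in replicate 1 of both groups, and its log2 fold change was 0.26 (SE 0.099, adjusted p = 0.123).

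The other members of the arm overlapped between groups. Log2 fold changes were 0.40 for ADM (the vasodilator peptide adrenomedullin), 0.37 for KDM3A (a histone H3K9 demethylase), 0.31 for BNIP3L and -0.08 for BNIP3 (both mitophagy receptors), with adjusted p between 0.423 and 0.815. CA9, the cell surface carbonic anhydrase that marks hypoxic tumor regions, was at or under 0.0769 FPKM in all 6 libraries, replicate 1 included. ANKRD37 was at 0.163 to 0.407 FPKM in iEV and 0.517 to 0.901 FPKM in iGLI2. LOX, a collagen cross-linking oxidase, was at 0.528 to 0.795 FPKM in iEV and 0.381 to 0.679 FPKM in iGLI2.

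**Figure D4:**
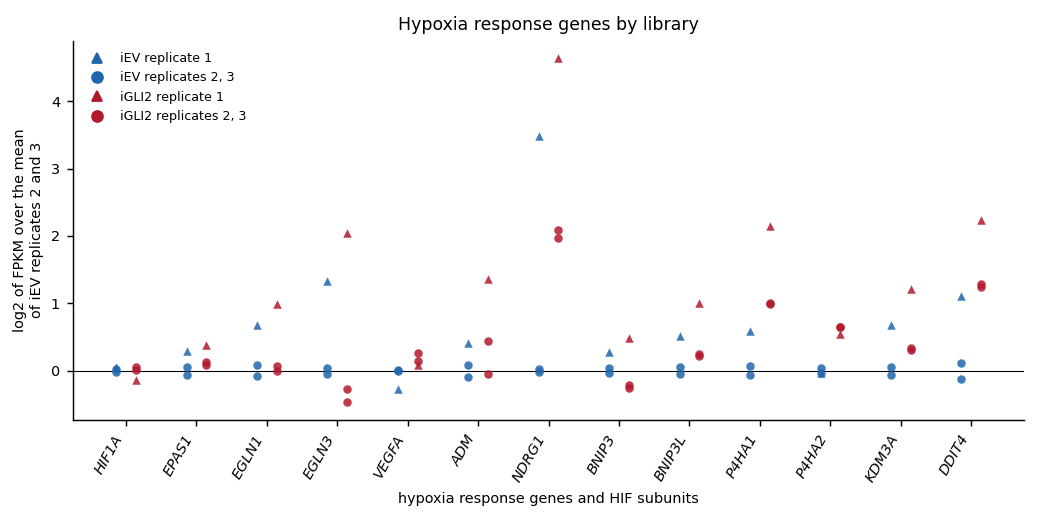
Log2 of FPKM over the mean of iEV replicates 2 and 3 for the 13 tested hypoxia members in each library, with iEV in blue, iGLI2 in red and replicate 1 as triangles. For NDRG1, EGLN3, P4HA1, DDIT4 and KDM3A the triangles lie above the circles of their own group, and for VEGFA they lie below.

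Across the members, replicate 1 was the highest of 3 in both groups for 26 of 35 (74.3%), beside 25.2% of all genes tested, and the lowest of 3 in both groups for 4, beside 33.9% of all genes. Of the members, 13 were at least 1.3-fold over the mean of replicates 2 and 3 in both groups (FPKM + 1, mean on the log2 scale), beside 2.64% of all genes. The glycolysis arm gave 16 of 22 highest in replicate 1 and the hypoxia arm 10 of 13. In a wider list of hypoxia-induced genes that holds no member, replicate 1 was highest in both groups for 30 of 61 tested (49.2%). GLI2 itself went the other way in iGLI2, at 94.5 FPKM in replicate 1 against 207 and 195 FPKM, and what set replicate 1 apart was not tested.

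**Figure D5:**
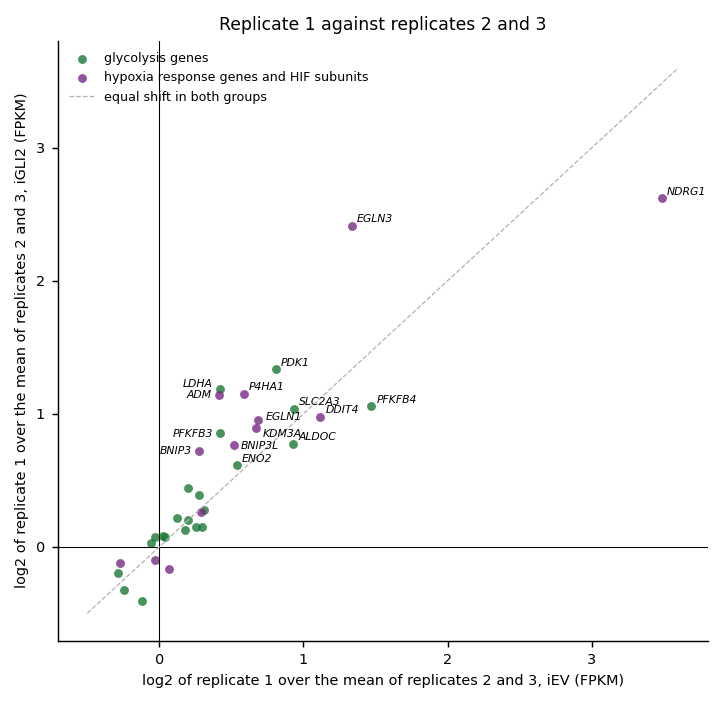
Log2 of FPKM in replicate 1 over the mean of replicates 2 and 3, in iEV (horizontal axis) and in iGLI2 (vertical axis), for the 35 tested members, with glycolysis genes in green and hypoxia genes in purple. Most points lie in the upper right, NDRG1 farthest out at 11.2-fold in iEV and 6.15-fold in iGLI2, and EGLN3, LDHA, PDK1 and ADM lie above the dashed line of equal shift.

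Without replicate 1 of both groups, 14 members were called higher, beside 21.3% of all genes, and 12 were called lower, beside 22.5%. The added higher calls were SLC2A1, PFKP, ENO2, PFKFB4, VEGFA, NDRG1, BNIP3L, P4HA1, KDM3A and DDIT4. The added lower calls were PFKM, GAPDH, PGK1, PGAM1, LDHA, EGLN3 and BNIP3. All 9 calls of the full comparison were made again in the same direction. The choice to leave out replicate 1 was made after its values were seen, and each group then rests on 2 libraries.

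In lists of neighbouring pathways, calls are read beside the 10.1% of all genes called higher and 11.8% called lower (21.9% in all). Other glucose and monocarboxylate transporters had 2 higher and 2 lower of 8 tested (50% called). SLC2A10 (0.31, adjusted p = 0.018) and SLC2A8 (0.39, adjusted p = 0.0275) were higher, and SLC2A12 (-0.51, adjusted p = 0.00322) and SLC2A6 (-0.54, adjusted p = 0.0221) were lower on the log2 scale. Other glycolytic isozymes and gluconeogenic genes had 1 higher and 5 lower of 16 (37.5% called), HKDC1 among the lower, with a median log2 fold change of -0.18. FBP1, the fructose bisphosphatase that opposes phosphofructokinase, read 29.0, 27.7 and 26.0 FPKM in iEV and 12.2, 12 and 12.8 FPKM in iGLI2, 55.2% lower by mean (log2 fold change -1.10, adjusted p = 0.000351). PGM2 (-0.34, adjusted p = 0.0125) and PGAM5 (-0.28, adjusted p = 0.0148), a mitochondrial phosphatase despite its name, were lower, and MINPP1 (0.29, adjusted p = 0.0352), an inositol phosphate phosphatase, was higher.

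Pyruvate dehydrogenase and pyruvate import had 0 higher and 4 lower of 13 (30.8% called, beside 21.9% of all genes), led by PDHA1 (-0.35, adjusted p = 0.01), the catalytic alpha subunit, with PDP1 (-0.77, adjusted p = 0.023), the phosphatase that activates the complex, and PDHX (-0.26, adjusted p = 0.0337). The tricarboxylic acid cycle had 1 higher and 5 lower of 20 (30.0% called), with a median of -0.24. Its ACO1, the cytosolic aconitase and iron regulator, read 22.4, 24.1 and 24.3 FPKM in iEV and 12.8, 13 and 11.9 FPKM in iGLI2 (log2 fold change -0.86, adjusted p = 0.000718). SUCLG1 (-0.54, adjusted p = 0.00781) and SDHA (-0.35, adjusted p = 0.0091), a subunit of succinate dehydrogenase, were lower, while IDH1 (0.36, adjusted p = 0.027), the cytosolic isocitrate dehydrogenase, was higher.

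The pentose phosphate list had 1 higher and 0 lower of 11 (9.09% called, beside 21.9% of all genes). H6PD, the form of the endoplasmic reticulum, read 8.06, 7.87 and 7.97 FPKM in iEV and 12.4, 13.6 and 12.8 FPKM in iGLI2 (log2 fold change 0.63, adjusted p = 0.00128). Glycogen metabolism had 3 higher and 0 lower of 12 (25.0% called, near the share of all genes). PYGB, the brain-type glycogen phosphorylase, read 25.6, 24.7 and 25.0 FPKM in iEV and 47.8, 78.0 and 75.9 FPKM in iGLI2, with replicate 1 the lowest of iGLI2 (log2 fold change 1.35, adjusted p = 0.00577). UGP2 (0.40, adjusted p = 0.0131), which makes UDP-glucose, and PPP1R3B (0.77, adjusted p = 0.02), a glycogen-targeting phosphatase subunit, were the others.

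The HIF pathway machinery had 0 higher and 3 lower of 18 tested (16.7% called, under the 21.9% of all genes). CITED2, which competes with HIF for the coactivator p300, read 41.1, 34.3 and 30.5 FPKM in iEV and 15, 12.6 and 12.9 FPKM in iGLI2, 61.8% lower by mean (log2 fold change -1.32, adjusted p = 0.00152). The merged entry of EGLN2, MIA and RAB4B was also lower (log2 fold change -0.92, adjusted p = 0.000722), and which of its 3 genes moved cannot be told apart. VHL, which marks HIF alpha subunits for breakdown, was at -0.25 (adjusted p = 0.0294), a call lost in 7 of 16 alternatives.

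In the wider list of hypoxia-induced genes, 7 were higher and 9 lower of 61 tested (26.2% called, beside 21.9% of all genes), with a median log2 fold change of 0.02. Its leading higher genes were BHLHE41, CXCR4 and PDGFB, a circadian repressor, a chemokine receptor and a growth factor. BHLHE41 read 4.18, 5 and 4.87 FPKM in iEV and 73.9, 105 and 106 FPKM in iGLI2 (log2 fold change 4.06, adjusted p = 0.000131). PDGFB read 2.28, 1.83 and 1.59 FPKM in iEV and 22.7, 26.7 and 25.2 FPKM in iGLI2 (log2 fold change 3.16, adjusted p = 0.000131). CXCR4 was at 0.0311 to 0.119 FPKM in iEV and 4.90 to 6.18 FPKM in iGLI2 (log2 fold change 2.62, adjusted p = 0.000131). In BHLHE41, replicate 1 was the lowest library of both groups, unlike NDRG1 and EGLN3. Its leading lower genes were NOS3 (-1.07, adjusted p = 0.000968), RAB20 (-0.78, adjusted p = 0.00162) and TPBG (-0.42, adjusted p = 0.00444).

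Regulators of glycolytic transcription had 1 higher and 2 lower of 23 (13% called, under the 21.9% of all genes). MLXIPL (ChREBP, the glucose-responsive factor of the liver) read 1.40, 1.01 and 1.59 FPKM in iEV and 3.29, 3.32 and 3.32 FPKM in iGLI2 (log2 fold change 0.89, adjusted p = 0.00373). PPARGC1A, a coactivator of mitochondrial genes, read 8.68, 6.96 and 7.47 FPKM in iEV and 4.04, 2.78 and 2.77 FPKM in iGLI2 (log2 fold change -1.06, adjusted p = 0.00476). ESRRA, its nuclear receptor partner, was at -0.28 (adjusted p = 0.0274). Of the 31 genes that the naming rule took from these lists, 17 kept their call under every alternative run and 14 lost it under at least 1, namely SLC2A6, SLC2A8, SLC2A10, MINPP1, PGM2, PGAM5, PDHA1, PDP1, PDHX, IDH1, UGP2, PPP1R3B, VHL and ESRRA.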

How the data were processed

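RNA-seq values of 3 YAPC-iGLI2 and 3 YAPC-iEV libraries were read from 1 table deposited by the authors, with 0 value columns left without a sample. The authors prepared libraries from total RNA with a TruSeq kit, used Trimmomatic on the reads, mapped these with TopHat2 to hg19 and ran Cuffdiff 2.1.1 (paper's methods and submitters' processing notes). The annotation, the scaling between libraries and the treatment of reads that match several places are not given in the sources used here. The table names no unit. The deposited values were read as FPKM because they are not whole numbers, their totals differ between libraries and their form is that of Cuffdiff, and no whole reads could be recovered from them.

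Of 27024 entries, 1252 outside the primary chromosomes and 330 with a higher entry of the same name were left out. The limma test (version 3.58.1) took log2(FPKM + 1) of all genes whose mean reached 1 FPKM (R 4.3.3; condition only, intensity trend, two-sided, Benjamini-Hochberg over 12493 genes, threshold 0.05), so fold changes of low genes are understated. The test was checked on simulated data with independent noise in each gene and library, so the check does not cover a shift shared by replicate 1. Isozyme shares were compared by exact permutation of the 6 libraries. Python 3.11.15, pandas 2.3.3, numpy 2.4.6 and matplotlib 3.10.9 made the tables and plots. Alternatives were a pseudocount of 0.1, no filter, a mean of at least 5 FPKM, 3 other scalings, 2 blocks, no trend, and each library left out. The blocks were the replicate number and the digit of the sample code, which was 1 for replicates 1 and 2 and 2 for replicate 3. What the digit stands for is not given in the sources used here. Its block gave 4 members higher and 5 lower, beside 962 genes higher and 1122 lower of 12493. Leaving out replicate 1 of both groups and counting HKDC1 among the hexokinases were added after the data were seen.

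Members and gene lists were chosen with earlier results of these data known. Named are all 38 members, GLI2, the marker lists, and from each neighbouring list the 3 genes with the smallest adjusted p in each direction among those called. HKDC1 was added after its values were seen, and 1 gene was taken out of these lists and is not analysed here. The main test did not pair libraries by replicate number. Deviations of same-numbered libraries from their group means correlated at 0.204, 0.0919 and 0.0276 for replicates 1 to 3. The value of replicate 1 was the highest of all pairs. That of replicate 2 was under the 0.117 of iEV replicate 2 with iGLI2 replicate 3. These values do not exclude a pairing. A block on replicate number gave 13 members higher and 7 lower, with 3928 genes called (1809 higher and 2119 lower).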

Additional observations from a re-analysis of the deposited data

How the results depend on the processing

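Calls for SLC2A3, SLC16A3, HK1, HK2, TPI1, ENO1 and P4HA2 were kept in all 16 alternatives, 7 of the 9 called members. Over all genes, 2742 calls became 1223 to 3753 with 1 library left out, fewest without iEV replicate 2 (1223), iEV replicate 3 (1303), iGLI2 replicate 2 (1357) or iGLI2 replicate 3 (1510), and 5467 without replicate 1 of both groups. Leaving out 1 library gave 4 to 6 members higher and 3 to 9 lower, beside 608 to 1855 genes higher and 615 to 1898 lower of 12493. There were 3 members lower without iEV replicate 2 or iGLI2 replicate 2 and 9 without iGLI2 replicate 1. In the glycolysis arm, leaving out 1 library gave 3 to 4 members higher and 3 to 9 lower. In the hypoxia arm it gave 1 to 2 higher, with 2 without iEV replicate 1 or iGLI2 replicate 1. Without replicate 1 of both groups there were 14 members higher and 12 lower, beside 21.3% and 22.5% of all genes. Of these members, 7 and 10 were in the glycolysis arm and 7 and 2 in the hypoxia arm. Scaling without small RNA genes gave 7 members higher, 3 of them in the hypoxia arm, beside 1794 of 12168 genes higher. Quantile normalization gave 3 lower, all in the glycolysis arm, and 2 higher in the hypoxia arm, beside 1523 genes lower and 1254 higher of 12493. The replicate block gave 13 members higher, 6 in the glycolysis arm and 7 in the hypoxia arm, and 7 lower, with 3928 genes called. iEV replicate 2 correlated best with iGLI2 replicate 3 (0.117), not with its own number. The median log2 fold change of the members was 0.01 without iGLI2 replicate 1 and 0.32 without iEV replicate 1. Counting HKDC1 among the hexokinases moved the HK2 share difference from 22.6 to 17.1 percentage points, since it widens the sum. The cause of the other shifts was not tested. Directions turned for members that were not called: GAPDH with quantile normalization (0.04), HIF1A without small RNA genes (0.03) and without replicate 1 of both groups (0.03), PDK1 without replicate 1 of both groups (-0.04), and EGLN3 with a pseudocount of 0.1 (-0.01) and without replicate 1 of both groups (-0.32). With 1 library left out, log2 fold changes ran from -0.07 to 0.12 for PFKL, -0.17 to 0.35 for ALDOC, -0.03 to 0.35 for PFKFB3, -0.27 to 0.34 for PDK1, -0.08 to 0.01 for HIF1A, -0.18 to 0.32 for EGLN1, -0.73 to 0.42 for EGLN3 and -0.32 to 0.05 for BNIP3, and the EGLN3 share difference from -0.533 to 10.4 percentage points. FPKM gives no depth, so which low values are limited by it is unknown.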
